A study of Caenorhabditis elegans with 2 samples.

Results

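Rab proteins are small GTPases that mark the membranes of the secretory and endocytic routes, and 10 of their genes in Caenorhabditis elegans are described here by the binding of HAM-2 near them: rab-1, rab-3, rab-5, rab-6.2, rab-7, rab-8, rab-10, rab-11.1, rab-35 and unc-108. These 10 of 19973 protein-coding genes were chosen by name with the HAM-2 signal at some of them already known, so their counts and signals are a description and no test was made on them. The study measured HAM-2 binding by chromatin immunoprecipitation and sequencing (ChIP-seq) in whole embryos of strain OP639, of mixed sex and stage, collected by egg bleaching at an age of 3 hours per the labels. The strain carries the transgene wgIs639, with ham-2 fused to TY1, EGFP and 3xFLAG and an unc-119(+) rescue, in the unc-119 (tm4063) background, and an antibody against GFP was used on sonicated chromatin of 200 to 800 bp. There is 1 group with 2 libraries, biological replicates 6 and 7, both from this 1 strain, and no second condition. Whole embryos mix all tissues, so binding in a few cells cannot be told apart from weak binding in many.

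A Rab protein cycles between a GTP-bound form on a membrane, where it recruits effector proteins, and a GDP-bound form in the cytosol. Each Rab works at its own membrane: the Golgi, early endosomes, late endosomes, recycling endosomes or synaptic vesicles. HAM-2, which has zinc fingers, is required in the worm for HSN motor neurons to migrate. Many worm genes are trans-spliced, so the annotated 5′ end of a gene can lie downstream of the point where transcription starts, and the distances given here are from the annotated 5′ end.

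The submitters' set of peaks that passed their threshold of irreproducible discovery rate, called the reproducible set here, holds 1945 peaks. Its lowest signal from the authors' caller, 105.3, is also that of rank 1945 in the list pooled from both libraries. The set thus corresponds to the 1945 strongest pooled peaks, so a place in it is a cutoff on pooled signal. Of the 1945 peaks, 7 had their summit in the window of a Rab gene, from 2000 bp upstream to the far end of the gene. The DNA under 3 of these summits is printed as examples. They are the 3 that hold a word searched below, and the strongest summit, at rab-11.1, is not shown, so they need not be typical of the 7. Each line holds 101 bases centred on the summit, read from the forward strand of WBcel235 (the assembly also called ce11), and capitals mark the word GAGAGA.

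rab-1, chrV:1264440-1264540, plus strand: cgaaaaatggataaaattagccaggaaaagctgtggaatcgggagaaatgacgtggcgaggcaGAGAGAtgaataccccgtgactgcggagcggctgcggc
rab-6.2, chrX:17222022-17222122, plus strand: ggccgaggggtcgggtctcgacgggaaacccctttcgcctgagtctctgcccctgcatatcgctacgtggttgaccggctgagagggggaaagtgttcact
rab-7, chrII:11967687-11967787, plus strand: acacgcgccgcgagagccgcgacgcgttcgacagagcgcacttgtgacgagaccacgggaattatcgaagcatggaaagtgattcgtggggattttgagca

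These stretches are rich in G and C: 53.5% at rab-1, 62.4% at rab-6.2 and 57.4% at rab-7. Over the 7 Rab summits the GC content ran from 45.5% at rab-10 to 62.4%, where the median of all 1945 reproducible summits was 49.5%, with a 5th percentile of 37.6% and a 95th of 61.4%. Windows of the same length centred 622 bp upstream of protein-coding genes, the median distance of the Rab summits, had a median of 33.7%. The Rab stretches are thus richer in GC than the typical upstream window, as the reproducible set as a whole is.

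Of 6 words searched on both strands in these 101 bases, 1 was found at a Rab summit. GAGAGA, or TCTCTC on the other strand, was at the rab-1 summit, 1 of 7, and at 25.1% of all reproducible summits against 5.05% of the upstream windows. The other 5 were at 0 of the 7. CACGTG was at 2.01% of all reproducible summits and 1.62% of the upstream windows, TTAGGC at 8.69% and 2.59%, CGTCTC at 14.7% and 2.69%, TATAAA at 3.44% and 12.5%, and GCGCGC at 8.07% and 0.761%. The shorter word GTCTC, or GAGAC on the other strand, overlaps CGTCTC and was searched after the sequences were seen. It is in the rab-6.2 and rab-7 stretches, 2 of 7, and at 30.8% of all reproducible summits against 11.2% of the upstream windows. A match is a description of the letters, not a binding site.

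A reproducible HAM-2 summit was present at 7 of the 10 genes, each with exactly 1: rab-1, rab-5, rab-6.2, rab-7, rab-10, rab-11.1 and unc-108. Of all protein-coding genes, 9.00% (1797 of 19973) had such a summit under the same rule. Since the genes were chosen with this signal known, nothing is read from the difference. Signal is the value the authors' caller gave each peak, with a scaling that is not stated, and it orders peaks within a list. The 7 signals ran from 126.4 at unc-108 to 491.5 at rab-11.1, with a median of 162.0, where the median over all genes with such a summit (each by its strongest) was 155.6. rab-3, rab-8 and rab-35 had no reproducible summit in their windows. The lowest signal in the reproducible set was 105.3, and the highest at a Rab gene outside it was 62.3, in an intron of rab-6.2.

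**Figure D1:**
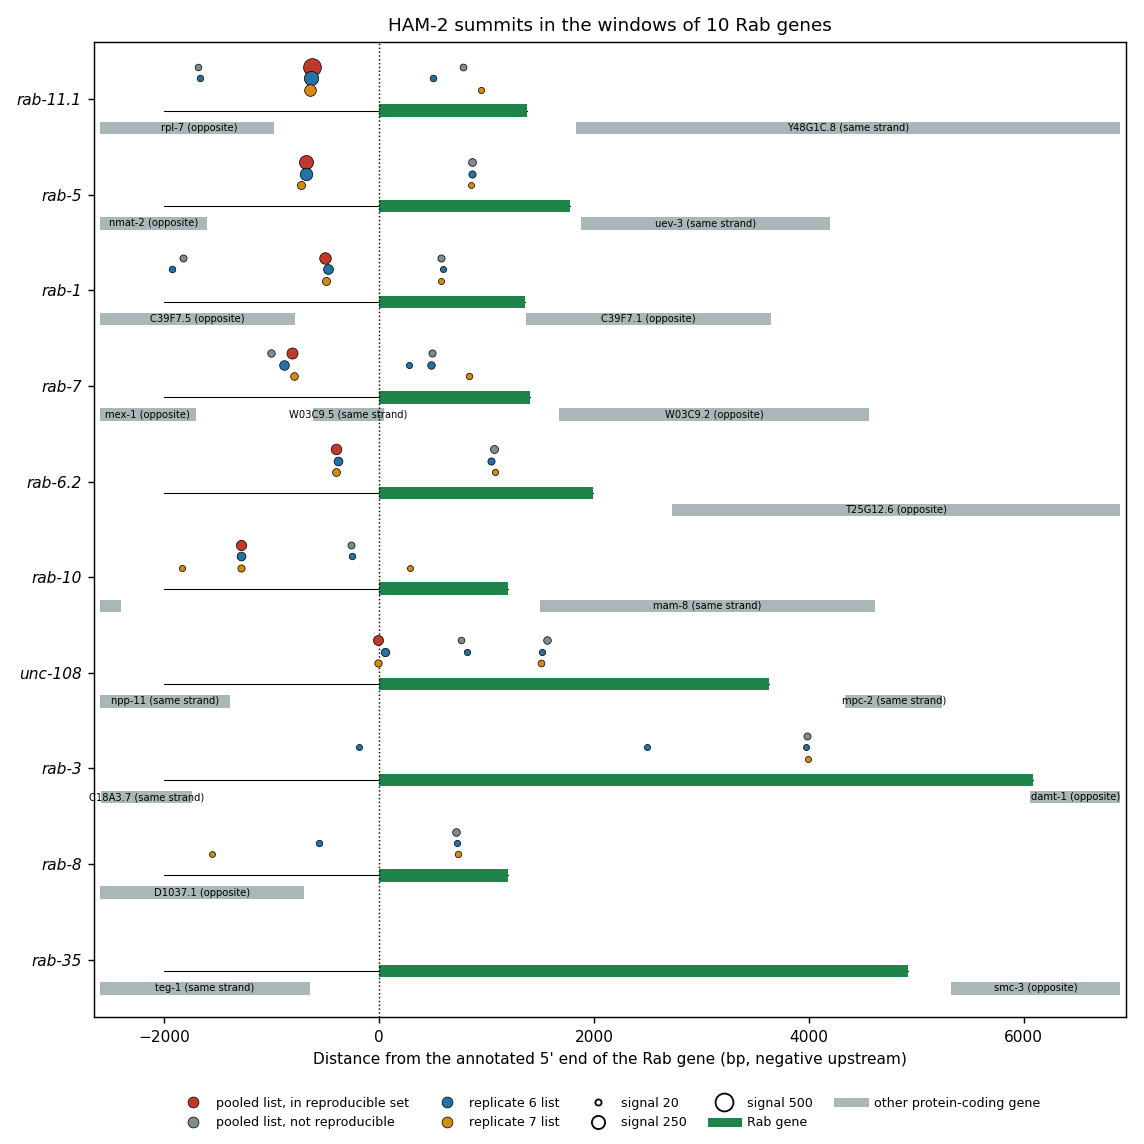
Summits in the windows of the 10 Rab genes, by distance from the annotated 5′ end in bp, with circle area rising with signal up to 500 and lanes for the pooled list (top), replicate 6 (middle) and replicate 7 (bottom). Red circles mark the 7 reproducible summits, all upstream of the Rab gene, from 12 bp at unc-108 to 1287 bp at rab-10. The gray bar left of rab-10 is knl-2.

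All 7 summits lay upstream of the Rab gene and outside any protein-coding gene body. Of all 1945 reproducible summits, 62.4% lay outside gene bodies, and of 2076 pairs of a gene and a reproducible summit in its window, 64.0% had the summit upstream. The median upstream distance was 622 bp for the Rab genes and 616.5 bp for all pairs with an upstream summit. The 7 distances ranged from 12 to 1287 bp. Of the 10 genes, 6 had a reproducible summit within 1000 bp upstream to 200 bp downstream of the 5′ end, against 4.60% of all genes. The gene left out by that narrower window was rab-10.

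rab-11.1, which encodes the Rab of recycling endosomes, had the strongest of these summits. The gene (WBGene00004274) lies on chromosome I from 108682 to 110057 on the minus strand, and its peak spans 110560 to 110813, with the summit 622 bp upstream. The pooled signal was 491.5, rank 71 of 30000. The signal was 305.2 in replicate 6, rank 67, and 188.2 in replicate 7, rank 76, so both libraries placed it alike. Relative to the median peak of its own list it stood 12.3-fold in replicate 6 and 8.37-fold in replicate 7 (10.3 ± 2.75, mean ± SD, n = 2), the highest of the 7 in each library. The summit lies between divergent genes. It is 359 bp upstream of rpl-7, which encodes a protein of the large ribosomal subunit and whose 5′ end is 981 bp from that of rab-11.1, and it falls inside the annotated noncoding RNA genes F53G12.15 and F53G12.16, which overlap on opposite strands. Downstream, Y48G1C.8 starts 458 bp past the end of rab-11.1 on the same strand and had a promoter summit of its own, with a signal of 107.6.

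rab-5 encodes the Rab of early endosomes, and its summit was the one on which the libraries differed most. The gene (WBGene00004268) lies on chromosome I from 9308442 to 9310221 on the plus strand, with the peak from 9307632 to 9307847 and the summit 684 bp upstream. Its pooled signal was 285.7, rank 253. Replicate 6 gave 221.6, rank 156, and replicate 7 gave 65.9, rank 807. The ratio of replicate 6 to replicate 7 was 3.36, above that of 96.2% of the 1831 reproducible peaks matched in both libraries, whose median ratio was 1.63. In units of the list median the values were 8.90-fold and 2.93-fold (5.92 ± 4.22, SD, n = 2). The other 6 Rab summits had ratios from 1.44 at rab-6.2 to 2.04 at rab-7, within the 5th to 95th percentiles of all matched peaks, 0.914 to 3.13. The nearest annotated 5′ end was that of rab-5 itself, and the divergent neighbour nmat-2, an NMN adenylyltransferase gene, began 914 bp from the summit. On the other side uev-3, a ubiquitin-conjugating enzyme variant gene, follows 97 bp after rab-5 on the same strand, a spacing found between genes of worm operons, and had no promoter summit.

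rab-7 encodes the Rab of late endosomes and lysosomes. The gene (WBGene00004271) lies on chromosome II from 11965523 to 11966931 on the minus strand, and its peak spans 11967527 to 11967946, with the summit 806 bp upstream. The signal was 162.0 in the pooled list, rank 855, with 113.0 in replicate 6, rank 747, and 55.5 in replicate 7, rank 1210. The summit in replicate 6 was 80 bp from the pooled one, the largest shift among the 7, and that in replicate 7 was 12 bp from it. A second, overlapping pooled peak had its summit 1005 bp upstream (signal 50.6), and the replicate 6 summit, 886 bp upstream, lay between them. Inside the gene, replicate 6 had summits 481 bp (signal 52.5, rank 3074) and 275 bp (20.2, rank 21249) past the 5′ end. The pooled list had one at 493 bp (41.7, rank 13942). Replicate 7 had its only one inside the gene at 840 bp (26.3, rank 10009). The reproducible summit lies 193 bp upstream of W03C9.5. That gene is on the same strand, overlaps the start of rab-7 by 47 bp and has its own 5′ end 613 bp upstream of that of rab-7. The divergent gene mex-1, for a maternal RNA-binding protein, begins 900 bp from the summit on the other side. The reproducible peak thus sits at the head of the pair W03C9.5 and rab-7, and 3 genes have their 5′ ends within 1000 bp of its summit.

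On the early secretory route, rab-1 encodes the Rab of transport from the endoplasmic reticulum to the Golgi, and unc-108 encodes worm RAB-2, which acts at the Golgi and in the maturation of dense-core vesicles. rab-1 (WBGene00004266, chromosome V from 1262629 to 1263989, minus strand) had its peak from 1264280 to 1264699, with the summit 501 bp upstream. Its signal was 182.9 in the pooled list, rank 674, with 119.9 in replicate 6, rank 646, and 66.7 in replicate 7, rank 791. The divergent gene C39F7.5 has its 5′ end 784 bp from that of rab-1, and the summit was nearer to C39F7.5, at 283 bp. A short noncoding RNA gene, C39F7.7, begins 20 bp from the summit.

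unc-108 (WBGene00006833, chromosome I from 3822883 to 3826514, plus strand) had the weakest reproducible summit of the 7 and the one closest to a 5′ end. The peak spans 3822661 to 3823080, with the summit 12 bp upstream. The summit was 9 bp upstream in replicate 7 and 58 bp downstream, in an intron of unc-108, in replicate 6, so the libraries placed it on different sides of the 5′ end. The signal was 126.4 in the pooled list, rank 1395, with 76.0 in replicate 6, rank 1560, and 46.6 in replicate 7, rank 1858. The annotation gives unc-108 4 different 5′ ends, and the distance is from the outermost. No other protein-coding 5′ end lay within 1000 bp of the summit.

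rab-6.2, for a Golgi Rab that acts in retrograde transport, was the member with the most isolated summit. The gene (WBGene00004270) lies on chromosome X from 17222475 to 17224465 on the plus strand, the peak spans 17221862 to 17222281 and the summit lies 403 bp upstream. The signal was 146.5 in the pooled list, rank 1045, with 86.1 in replicate 6, rank 1242, and 59.7 in replicate 7, rank 1003. It was the only one of the 7 that ranked nearer the top in replicate 7 than in replicate 6. No other protein-coding 5′ end lay within 1000 bp, and the divergent neighbour acdh-7 begins 5370 bp from rab-6.2.

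rab-10 and rab-8 encode related Rabs of polarised transport, the first in basolateral recycling in the intestine and the other in exocytosis and in cilia, and rab-10 had a reproducible summit while rab-8 did not. rab-10 (WBGene00004273, chromosome I from 6457282 to 6458479, minus strand) had a peak from 6459556 to 6459975, with the summit 1287 bp upstream. The signal was 133.8 in the pooled list, rank 1239, with 86.2 in replicate 6, rank 1241, and 43.3 in replicate 7, rank 2261. It was the 1 summit of the 7 outside the 1945 strongest peaks of a replicate, here replicate 7. The divergent gene knl-2, for a kinetochore protein, was nearer to the summit at 1112 bp, and the noncoding RNA gene K06A5.10 lay 170 bp away. Downstream, mam-8 follows on the same strand after 297 bp and had no promoter summit.

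rab-8 (WBGene00004272, chromosome I from 3682890 to 3684086, minus strand) had no reproducible summit nearer than 12205 bp. Its window held 1 pooled summit, in a coding exon 718 bp past the 5′ end, with a signal of 54.5, rank 7533. Replicate 6 had this summit at 21.9, rank 18426, and replicate 7 at 27.5, rank 8890. Further summits 557 bp upstream in replicate 6 (26.8, rank 12124) and 1555 bp upstream in replicate 7 (15.9, rank 29226) were not shared. The divergent gene D1037.1 begins 695 bp from rab-8 and had no promoter summit.

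rab-35, a Rab of endocytic recycling, was the member with no summit of any rank. Its gene (WBGene00004284, chromosome III from 11306647 to 11311566, minus strand) and the 2000 bp upstream hold 0 summits in the reproducible set, the pooled list and both replicate lists. Of all protein-coding genes, 64.0% had a pooled summit, background included, in such a window, and 9 of the 10 Rab genes did. On the same strand teg-1 ends 646 bp upstream of rab-35. The nearest reproducible summit, with a signal of 148.4 and rank 1019, lay in an intron of teg-1, 5735 bp upstream of rab-35.

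rab-3 is the neuronal member: it encodes the Rab of synaptic vesicles. The other 9 were classed as ubiquitous from general knowledge, and no expression data were used. A reproducible summit was present at 7 of the 9 ubiquitous genes and at 0 of the 1 neuronal gene, beside 9.00% of all genes. With a single neuronal gene the comparison has no replication. The genes were also chosen with the signal at some of them known, so nothing is read from the split. The rab-3 gene (WBGene00004267, chromosome II from 5721767 to 5727853, minus strand) has the longest window of the 10, at 8087 bp. Its single pooled summit lay in an intron 3987 bp past the 5′ end, with a signal of 41.3, rank 14265. The same site had a signal of 17.0, rank 28356 of 28414, in replicate 6 and 19.5, rank 20412 of 30000, in replicate 7. Replicate 6 also had a summit 184 bp upstream, with a signal of 18.6 and rank 24500, which replicate 7 did not. The nearest reproducible summit was 44997 bp upstream of the 5′ end, in an intron of dmd-5.

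**Figure D2:**
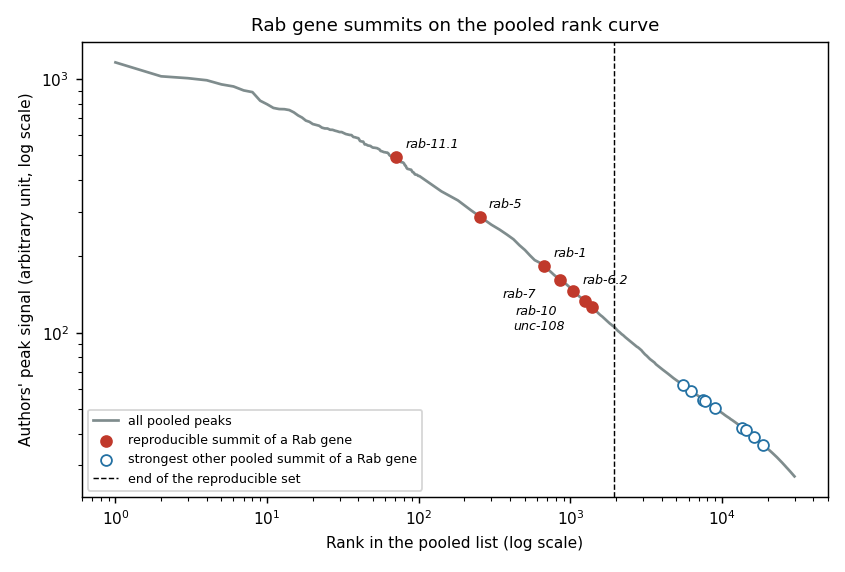
Authors' signal against rank in the pooled list of 30000 peaks, both on log scales. The 7 reproducible Rab summits lie between rank 71 and rank 1395, and the strongest other pooled summit of each Rab gene that has one lies between rank 5497 and rank 18631.

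All 7 reproducible summits had a summit within 100 bp in both replicate lists, as did 94.1% of the 1945. At rank 1945 the signal was 68.0 in replicate 6 and 45.7 in replicate 7, the level that a summit had to reach to be among the 1945 strongest peaks of that library. By this measure 7 of the 10 genes had a summit in replicate 6, against 9.11% of all genes, and 6 of 10 in replicate 7, against 8.72%. rab-11.1 ranked first of the Rab genes in both libraries. The order behind it was not the same. Replicate 6 gave rab-5, rab-1, rab-7, rab-10, rab-6.2 and unc-108. Replicate 7 gave rab-1, rab-5, rab-6.2, rab-7, unc-108 and rab-10. Some of these places were close to ties: rab-10 and rab-6.2 ranked 1241 and 1242 in replicate 6. In replicate 7, rab-1 and rab-5 had signals of 66.7 and 65.9. As multiples of the list medians, the means over both libraries were 3.89 ± 1.31 for rab-1, 3.50 ± 1.46 for rab-7, 3.06 ± 0.570 for rab-6.2, 2.69 ± 1.09 for rab-10 and 2.56 ± 0.692 for unc-108 (SD, n = 2). Neighbours in this order differed by less than their SDs, and rab-5 differed from rab-1 by less than its own SD. The multiple was higher in replicate 6 for all 7, so these SDs hold a difference between the lists that the summits have in common. Most of the 1831 matched peaks share it: their median ratio of replicate 6 to replicate 7 signal was 1.63, with list medians of 24.9 and 22.5.

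**Figure D3:**
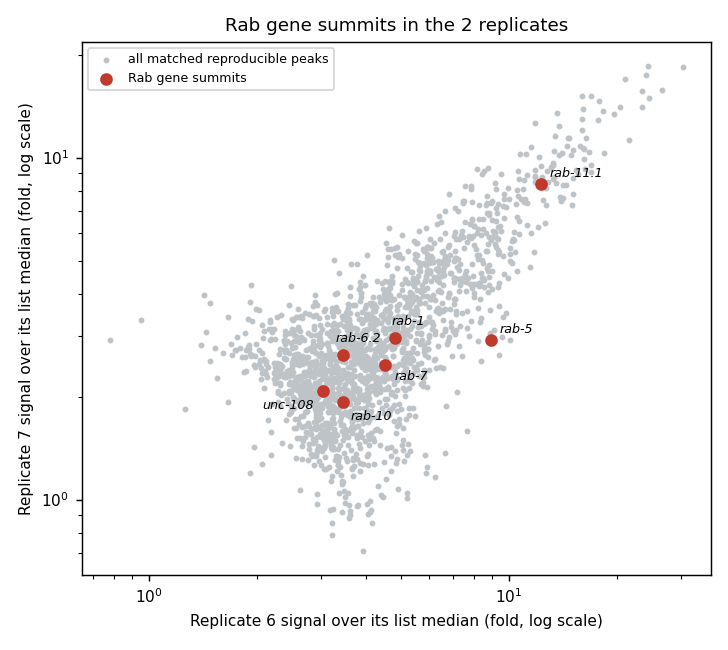
Signal over the median of its list in replicate 6 (x) and replicate 7 (y), both in fold on log scales, for the 1831 reproducible peaks matched in both libraries (gray) and the 7 Rab summits (red). rab-11.1 is highest on both axes among the Rab genes, and rab-5 lies at 8.90-fold in replicate 6 but 2.93-fold in replicate 7.

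Neighbouring genes share many of these summits. When each summit was given only to the protein-coding gene with the nearest annotated 5′ end, 3 of the 10 Rab genes kept theirs, rab-5, rab-6.2 and unc-108, against 6.19% of all genes. The other 4 summits were nearest to rpl-7, C39F7.5, W03C9.5 and knl-2. Of 2076 pairs of a gene and a summit in its window over the whole genome, 67.5% had the summit nearest to that gene, against 3 of 7 here. None of the 7 lay within 250 bp of a tRNA, snRNA, snoRNA, rRNA or miRNA gene. With summits near such genes left out, 7.86% of all protein-coding genes had a reproducible summit in the window, beside 9.00% with them. Most genes with a summit thus kept one. The share of all reproducible summits near such genes is not given here, so nothing is read from the absence at the Rab genes. A ChIP-seq peak does not say which neighbour, if any, it acts on.

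Below the reproducible set, the pooled list held 13 weaker summits in the Rab windows, of which 9 lay inside the Rab gene itself, 4 of them in coding exons. The share of weaker summits inside genes or exons was not computed for all gene windows, so nothing is read from these places. Both replicates had a summit within 100 bp for 6 of the 13 (46.2%), where 25.3% of all 28055 pooled summits outside the reproducible set did. The sets were not matched for signal and the genes were not chosen blind to it, so nothing is read from the difference. The 6 matched in both replicates were at rab-1, rab-3, rab-5, rab-6.2, rab-8 and unc-108. Each lay inside the gene, from 575 to 3987 bp past the 5′ end. Their pooled signals were 41.3 at rab-3 and 42.3 at rab-1, near the median of the list, 40.3, and higher at unc-108 (54.1, rank 7691), rab-8 (54.5, rank 7533), rab-5 (59.0, rank 6262) and rab-6.2 (62.3, rank 5497). The lists include background by construction, and no library from an untagged strain was analysed here.

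The rest of the family was described by a fixed list of 14 other Rab genes. A reproducible summit lay in the windows of 2 of 14 (14.3%), beside 9.00% of all genes, with a median signal of 201.8 over those 2. rab-19 had a summit 1900 bp upstream (signal 271.5, rank 290) and rab-21 one 1587 bp upstream (signal 132.2, rank 1271). Each was nearer to another gene, Y62E10A.23 at 38 bp and T01B7.5 at 228 bp. None of the 14 had a reproducible summit within 1000 bp upstream to 200 bp downstream, where 4.60% of all genes did. Among the 14 are the close paralogs rab-6.1 and rab-11.2 and the neuronal and gut Rab gene aex-6, none of which had one in the wider window.

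Of 46 genes for regulators and effectors of Rabs, 4 (8.70%) had a reproducible summit in the window, with a median signal of 171.6. The strongest was at cnt-1, for an effector of RAB-10, with a signal of 193.8, 6593 bp past the 5′ end. vps-16, a subunit of the tethering complexes of the late endosome and lysosome, followed with 193.4 at 1296 bp upstream, nearer to mrps-17 at 145 bp. The Rab GDP-dissociation inhibitor gene gdi-1, whose product extracts Rabs from membranes, had a summit 1243 bp upstream with a signal of 149.8. None of the 4 summits lay within 1000 bp upstream to 200 bp downstream. The share in the wider window was 8.70%, beside 9.00% of all genes, and the median window of this list, 7388.5 bp, was longer than that of all genes, 4027 bp. The comparison depended on the rule: from 5000 bp upstream 12 of the 46 had a summit, beside 13.2% of all genes, and with the 3890 strongest pooled peaks 13 did, beside 15.9%.

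Of 18 synaptic release genes, which work with RAB-3 at nerve terminals, 3 (16.7%, median signal 270.3) had a reproducible summit, beside 9.00% of all genes. The median window of this list was 8535.5 bp, longer than the 4027 bp of all genes, and 1 of the 18 (5.56%) had a summit within 1000 bp upstream to 200 bp downstream, beside 4.60% of all genes. They were the kinesin gene unc-104 (signal 298.2, 6621 bp past the 5′ end), the active zone gene syd-2 (signal 270.3, 495 bp upstream) and the syntaxin gene unc-64 (signal 112.4, 1294 bp upstream).

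**Figure D4:**
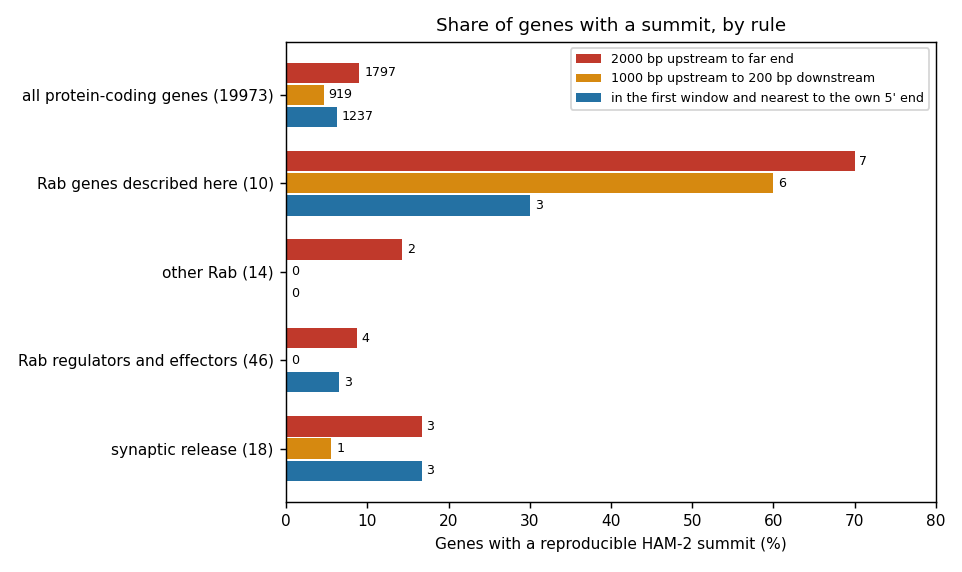
Share of genes in percent with a reproducible HAM-2 summit under 3 rules (bars from 0, with the number of genes at each bar) for all 19973 protein-coding genes, the 10 Rab genes described here and the other fixed lists. The other 14 Rab genes stand at 14.3% under the first rule and at 0 under the 2 others.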

How the data were processed

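The samples were 2 ChIP-seq libraries of HAM-2 fused to GFP from whole embryos. The signal values are those of the authors' peak caller as deposited in the lists for replicate 6 (28414 nuclear peaks), replicate 7 (30000) and both pooled (30000), background included, and in the reproducible list (1945). The authors' q-values were not used. Per the deposited listing, each list came from replicate and control alignments. Labels name ce11 as the assembly. Aligner, peak caller and depth per library: not given in the sources used here. Precision from depth is therefore unknown.

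Summits (start plus offset) were placed on Ensembl release 115 genes, and ranks are by signal within a list. Windows, nearest 5′ ends, matches (100 bp) and words were computed with Python 3.11.15, numpy 2.4.6 and pandas 2.3.3, and drawn with matplotlib 3.10.9. Sequences came from the RefSeq copy of WBcel235, whose chromosome lengths enclose all lists. The window step was tested on simulated summits: 200 of 200 were recovered. Of 91 listed genes, 88 matched by symbol. The unmatched 3 were not used here. A further gene list is not reported here.

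The members and lists were chosen with earlier results of these data known. Genes named are the 10 members, genes beside them or their summits, and the 3 genes of each other list with the strongest summit. Others are named for small counts or as paralogs, after their values were seen. Operon annotation was not used, only strand and spacing.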

Additional observations from a re-analysis of the deposited data

How the results depend on the processing

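The number of Rab genes with a reproducible summit, 7 of 10, was 6 or 7 in 8 of 11 alternatives. It was 2 when the window ran from 500 bp upstream to 100 bp downstream (rab-6.2 and unc-108), beside 3.24% of all genes. It was 4 in the stronger 50% of peaks (4.73% of all genes) and 3 when only the nearest 5′ end counted (6.19%). Each is a narrower rule by construction. The number of Rab genes ranged from 6 without replicate 6 to 7 without replicate 7, and the neuronal count was 0 in all 11. The reproducible summit nearest to rab-3 lay 44997 bp away, so alternatives drawn from the reproducible set could not change that 0. The promoter count of 6 was 2 in the narrower window, and the 7 summits were 4 in the stronger 50%. Matching within 50 bp left 5 of 7, and the share of all reproducible peaks matched at that distance was not computed. The other 14 Rab genes had 0 in both narrower windows (4.60% and 3.24% of all genes) and by nearest 5′ end (6.19%), and 1 in the stronger 50% (4.73%). The 46 regulators had 0 in both narrower windows (4.60% and 3.24% of all genes), 2 in the stronger 50% (4.73% of all genes), 12 from 5000 bp upstream (13.2%) and 13 with 3890 pooled peaks (15.9%). The synaptic genes had 1 in both narrower windows (4.60% and 3.24% of all genes). Read depth, which is not given, limits what absence from a list can show. No paired analysis was possible because there is 1 group.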
